A study of Homo sapiens with 4 samples.

Results

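HLA class I and antigen loading genes are described here as a set of 9 genes: HLA-B, HLA-C, HLA-E and HLA-F, B2M, TAP1, TAP2, TAPBP and NLRC5. They were chosen by symbol, matched to their Ensembl gene identifiers, and the rows of each identifier were added up. All 9 were found among the 25798 gene identifiers of the table, and all 9 passed the filter on low counts, which left 17090 genes. Transcripts were measured by RNA sequencing of total RNA in SW1990, an established human pancreatic cancer line labelled as wild type. Of the 4 libraries, 2 came from cells given 100 nM erianin for 48 h and 2 from control cells given DMSO, at equal concentration, for 48 h. Erianin is a small molecule from Dendrobium orchids, and AKT and ASK1 are the targets named in the title of the study.

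HLA class I molecules show peptides from inside the cell to CD8 T cells and natural killer cells. Each consists of an HLA heavy chain and beta-2 microglobulin, the product of B2M. Peptides made by the proteasome are pumped into the endoplasmic reticulum by TAP1 and TAP2, and tapasin, from TAPBP, holds the heavy chain at the pump until a peptide is bound. NLRC5 is a coactivator that acts on class I promoters through the factors RFX, CREB and NF-Y, and interferon gamma raises all of these genes. Loss of class I presentation is a known way for carcinoma cells to escape T cells.

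The reference promoters of 3 heavy chain genes and of B2M are shown. Those of HLA-B and HLA-C are more like each other than either is like that of HLA-F. The transcript levels given further down are far apart, and a link between sequence and level was not tested. Each is the run of 250 bases before the transcript start, from RefSeq on GRCh38.p14, 5′ to 3′ on the strand of the gene. These are reference sequences, not those of SW1990. Capitals mark matches to CCAAT (the Y box, bound by NF-Y), TGACG (the core of the cyclic AMP response element), the interferon-stimulated response element (GAAA, any 2 bases, GAAA) and a kappa B motif, searched on both strands, and matches may overlap.
HLA-B (chr6:31357180-31357429, minus strand): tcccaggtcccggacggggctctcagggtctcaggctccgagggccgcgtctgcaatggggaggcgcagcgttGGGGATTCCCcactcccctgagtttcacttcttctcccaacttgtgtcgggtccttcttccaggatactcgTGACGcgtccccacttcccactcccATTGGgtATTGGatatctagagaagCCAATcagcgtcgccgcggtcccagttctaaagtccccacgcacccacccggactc
HLA-C (chr6:31272093-31272342, minus strand): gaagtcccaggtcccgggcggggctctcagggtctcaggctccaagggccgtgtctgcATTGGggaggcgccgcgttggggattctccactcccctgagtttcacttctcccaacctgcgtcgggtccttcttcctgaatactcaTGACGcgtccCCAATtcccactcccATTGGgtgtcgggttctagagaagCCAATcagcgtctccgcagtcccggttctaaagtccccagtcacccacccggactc
HLA-F (chr6:29723184-29723433, plus strand): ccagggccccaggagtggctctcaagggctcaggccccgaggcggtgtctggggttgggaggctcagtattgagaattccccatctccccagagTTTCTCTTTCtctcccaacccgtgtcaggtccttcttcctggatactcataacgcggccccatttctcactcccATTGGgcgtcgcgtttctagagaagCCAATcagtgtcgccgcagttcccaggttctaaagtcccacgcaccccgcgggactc
B2M (chr15:44711267-44711516, plus strand): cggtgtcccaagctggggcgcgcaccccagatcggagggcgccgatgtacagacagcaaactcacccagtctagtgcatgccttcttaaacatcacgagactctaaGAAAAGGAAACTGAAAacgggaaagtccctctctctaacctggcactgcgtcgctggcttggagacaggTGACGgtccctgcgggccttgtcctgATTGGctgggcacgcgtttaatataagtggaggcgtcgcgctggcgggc

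RefSeq windows were found for 7 of the 9 genes, all but HLA-E and NLRC5. The HLA-B and HLA-C windows were identical at 226 of 254 aligned positions (89.0%), and those of HLA-B and HLA-F at 202 of 253 (79.8%). TGACG stood 106 bases before the start of HLA-B, 105 before that of HLA-C and 75 before that of B2M, each followed by a CCAAT match nearer the start. HLA-B, HLA-C and B2M were the 3 genes with both motifs, against 7.26% of all 35116 windows of this length. CCAAT, with or without TGACG, was in 5 of the 7 genes (32% of windows). TGACG, with or without CCAAT, was in 4 (21.2%). A gene was counted if any window of it matched, and another window of TAP1 matched none of the motifs. The strict pattern used for the interferon-stimulated response element was matched in HLA-F, B2M, TAP1, TAP2 and TAPBP, against 3.02% of windows. Looser forms of the element were not searched, so the lack of a match in HLA-B and HLA-C does not show that they have none. The kappa B motif was searched as an exact string, the run of capitals 177 bases before the start of HLA-B. Of the 7 genes only HLA-B matched it, against 0.0683% of windows. Other forms of this motif were not searched, so the lack of a match elsewhere does not show that those genes have none. These matches describe letters in the windows and no binding in these cells was measured.

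The libraries held from 59923935 to 63336545 counts. Whether replicates are separate cultures is not stated in the labels, so a p-value here measures the spread between libraries alone, and that spread may be technical. All 7 ductal epithelial markers were above 1 CPM in every library (CPM is counts per megaread of library size, after scaling by TMM factors). KRT8 lay between 5249.7 and 6533 CPM and CDH1 between 16.4 and 19.2 CPM. EPCAM and MUC1 were low, at 2.39 to 6.05 CPM and 2.80 to 5.15 CPM. Of 10 immune markers, CD3E and MS4A1 were not analysed here, and PTPRC, the pan-leukocyte gene, reached 0.136 CPM in DMSO replicate 1 and was 0 in the other 3 libraries. The sum of the immune list ran from 194 to 200 CPM in DMSO and from 206 to 246 CPM in erianin, nearly all of it CD68, a lysosomal gene, at 193 to 244 CPM. Of 6 fibroblast markers, the sum was 38.5 CPM in DMSO replicate 1 and 11.2 to 14.3 CPM in the other 3 libraries. COL3A1 and DCN were at 8.83 and 6.03 CPM in DMSO replicate 1 and at most 0.353 and 0.128 CPM elsewhere. PDGFRB was at 4.57 to 5.42 CPM in all 4 libraries, and 3 of the 6 markers were above 1 CPM in every library. Of 4 endothelial markers, CDH5 was not analysed here, and the sum of the others was at most 1.296 CPM. The part of these other cell types in the results was not tested. Leaving out DMSO replicate 1, the library with the highest sum of fibroblast markers, moved 4 of the 9 log2 fold changes by over 1.5 times. HLA-B went from 0.13 to 0.22, B2M from 0.11 to 0.19, HLA-E from 0.13 to 0.077 and NLRC5 from 0.052 to 0.0071. Leaving out another library also moved values. Without DMSO replicate 2, HLA-B was at 0.050 and B2M at 0.033. Without erianin replicate 2, HLA-C was at 0.089 and NLRC5 at -0.0020.

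Levels were compared between genes on the deposited FPKM scale, which divides by transcript length. B2M was the highest of the set and NLRC5 the lowest. B2M (ENSG00000166710, GRCh38 chromosome 15, 44711487 to 44718877, plus strand) had 627 and 558 FPKM in DMSO and 610.3 and 573 FPKM in erianin. HLA-C (ENSG00000204525, chromosome 6, 31268749 to 31272130, minus strand) had 459 and 467 FPKM in DMSO and 490.4 and 495 FPKM in erianin. Both lay in the top percentiles of the genes tested by FPKM, at 99.1 and 99.0.

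HLA-E (ENSG00000204592, chromosome 6, 30489467 to 30494205, plus strand), whose product is the ligand of the inhibitory receptor NKG2A, followed with 119 and 130.1 FPKM in DMSO and 131 and 122 FPKM in erianin. TAPBP (ENSG00000231925, chromosome 6, 33299694 to 33314387, minus strand) lay between 64.7 and 70.5 FPKM over the 4 libraries. TAP1 (ENSG00000168394, chromosome 6, 32845209 to 32853978, minus strand) lay between 25.7 and 30.0 FPKM. These 5 genes fell in the same order in every library.

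HLA-B (ENSG00000234745, chromosome 6, 31269491 to 31357188, minus strand) had 33.3 and 14.1 FPKM in DMSO and 16.3 and 14.1 FPKM in erianin. Its DMSO replicate 1 stood apart from the other 3 libraries, so HLA-B and TAP1 overlapped in level. TAP2 (ENSG00000204267, chromosome 6, 32821833 to 32838780, minus strand) lay between 9.78 and 11.7 FPKM. HLA-F (ENSG00000204642, chromosome 6, 29722775 to 29738528, plus strand), a class I gene of restricted expression, lay between 4.11 and 4.95 FPKM. NLRC5 (ENSG00000140853, chromosome 16, 56989485 to 57083531, plus strand) lay between 2.22 and 3.63 FPKM. Apart from TAP1 and HLA-B, no 2 neighbours in this order overlapped over the 4 libraries.

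**Figure D1:**
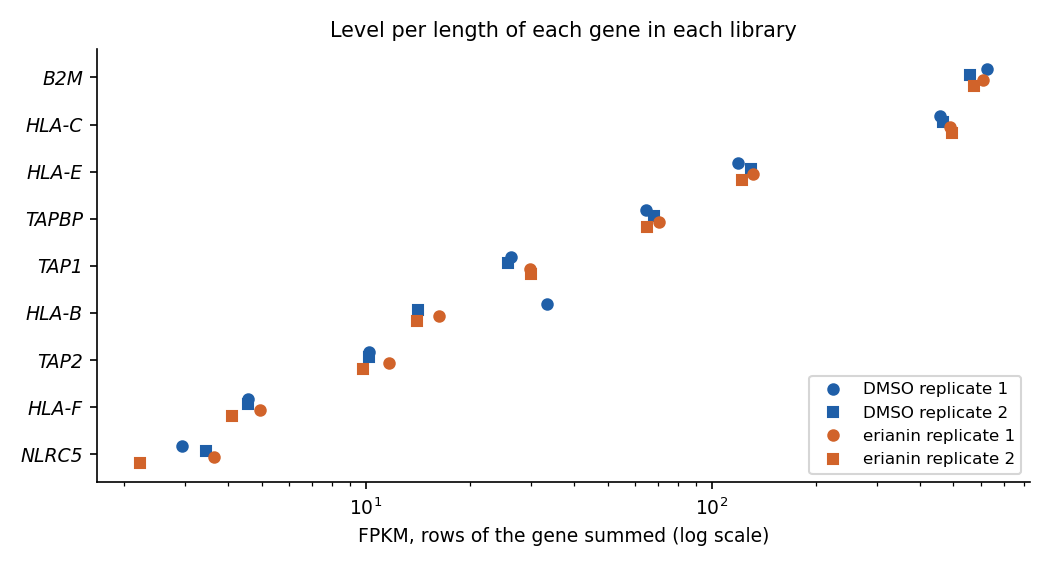
FPKM of each gene in each library on a log axis, with rows of a gene summed; blue is DMSO, orange erianin, circles replicate 1 and squares replicate 2. B2M and HLA-C are highest, NLRC5 is lowest, and HLA-B at 33.3 FPKM in DMSO replicate 1 is the point that leaves its group.

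HLA-C dominated the 4 heavy chain genes measured here. It made up 74.5% and 75.9% of their summed FPKM in DMSO and 76.3% and 77.9% in erianin. Summed, the 4 heavy chain genes had 616 and 616 FPKM in DMSO and 643 and 635 FPKM in erianin. Their sum was 0.982 and 1.10 times B2M in DMSO and 1.05 and 1.11 times B2M in erianin, so the ranges overlapped. By counts, HLA-C was 13.9 and 15.6 times HLA-B in DMSO and 14.7 and 15.5 times in erianin. By FPKM the ratio was 13.8 in DMSO replicate 1 and 30.0 to 35.1 in the other 3 libraries.

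The subunits of the peptide pump were not equal. TAP1 exceeded TAP2 by 2.59 and 2.52 times in DMSO and by 2.55 and 3.06 times in erianin on the FPKM scale. In counts, which are not per length, the ratio was 1.22 and 1.203 in DMSO and 1.24 and 1.49 in erianin. On both scales erianin replicate 2 was the highest of the 4.

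Most genes here have several rows in the deposited table, which gives no transcript names, and the division of counts over rows was uneven between libraries. For HLA-C, 1 row held 42692 counts in DMSO replicate 1 and 0 in the other 3 libraries. Another row of HLA-C held 1759 counts in DMSO replicate 1 and 40067, 45760 and 42767 in DMSO replicate 2 and erianin replicates 1 and 2. For HLA-B, 1 row held 3659 counts in DMSO replicate 1 and 0 elsewhere, and another held 25 there and 1937, 2645 and 3321 elsewhere. In each case the counts moved between rows of the same gene, and DMSO replicate 1 was the library that differed.

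The HLA-B rows were not of equal length. The row used in DMSO replicate 1 had 114 counts for each unit of FPKM, and the row that led in the other 3 libraries had 249 to 258. A count on the former therefore gave a higher FPKM, and the gene's FPKM spanned 2.36-fold over the libraries while its CPM spanned 1.204-fold. The rows of HLA-C that exchanged counts had 115 and 114 counts for each unit of FPKM in DMSO replicate 1, and its FPKM spanned 1.08-fold.

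TAP2 and TAPBP showed the same unevenness. The leading row of TAP2 was another one in DMSO replicate 2 than in the other 3 libraries. TAPBP, with 19 rows, had 3 different leading rows over the 4 libraries. HLA-E, HLA-F, B2M, TAP1 and NLRC5 kept 1 leading row, which held 98.4% to 99.4% of the counts of HLA-E and 45.7% to 96.7% of those of NLRC5. The leading row thus differed between libraries in 4 of 9 genes, and in 25.3% of 7359 genes with several rows and a log2 CPM averaging 3 or more. All further values are sums over rows.

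**Figure D2:**
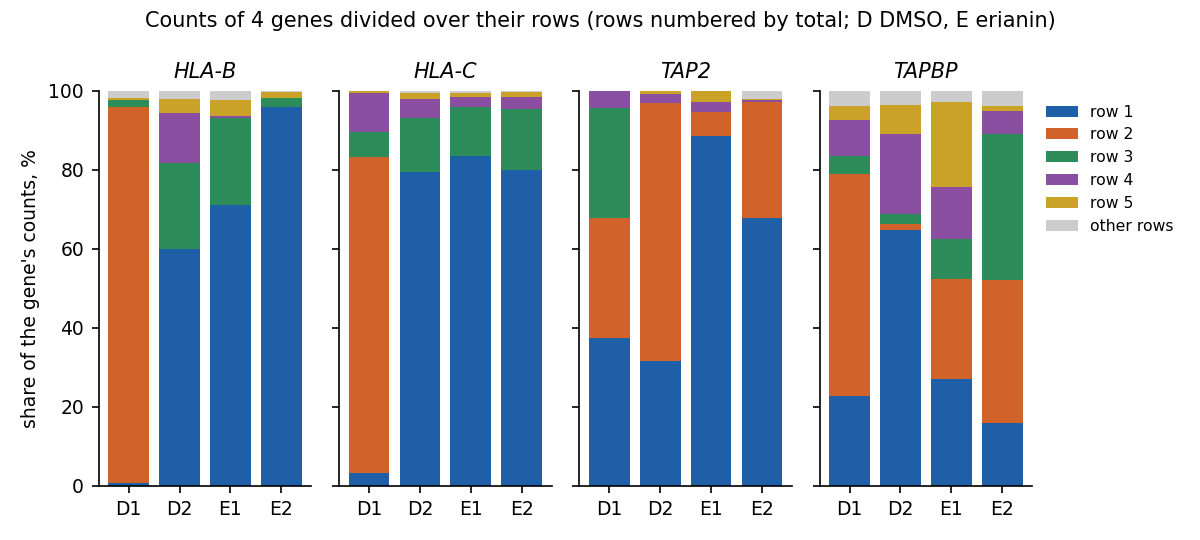
Share of the counts of HLA-B, HLA-C, TAP2 and TAPBP on each row of the gene, in percent, with rows numbered by their total over the 4 libraries (D DMSO, E erianin). In HLA-B and HLA-C row 2 holds 95.1% and 79.9% of DMSO replicate 1 and 0 elsewhere, and TAPBP changes its leading row between libraries.

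Sequence shared with other genes also bears on single heavy chain genes. The longest HLA-B and HLA-C transcripts (GENCODE 29) aligned at 91.5% identity over 1557 aligned positions, and HLA-B aligned to HLA-E and HLA-F at 87.1% and 86.1%. The annotated span of HLA-B contains other genes, among them part of HLA-C on the same strand. Stretches of at least 200 nucleotides at 95% identity with some other gene covered 17.6% of the HLA-B transcript, 47.9% of that of HLA-F, 15.6% of that of TAP1, 36.3% of that of TAP2 and 7.79% of that of TAPBP. HLA-C, HLA-E, B2M and NLRC5 had none. HLA-F, TAP1 and NLRC5 also overlap 3, 2 and 2 genes on the other strand. How reads matching more than 1 gene were counted, and whether strand was used, is not given in the sources used here, so the values of these genes are uncertain to that extent.

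The comparison of erianin with DMSO asked whether transcripts of the class I pathway differ after exposure to the compound. None of the 9 genes passed the test (edgeR quasi-likelihood, Benjamini-Hochberg adjusted over 17090 genes, adjusted p from 0.575 to 0.917). Over all genes 7 passed, which is 0.041% (0.0117% higher and 0.0293% lower). At an unadjusted p under 0.05 there was 1 of the 9, TAP1, which was higher, and 8.1% of all genes (2.21% higher and 5.89% lower). All 9 fitted log2 fold changes lay above 0, as did 48.7% of all genes. They ran from 0.05 to 0.30 with a median of 0.13, against a median of -0.01 over all genes tested. Bulk RNA cannot tell fewer cells of a type from less RNA per cell.

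Among the heavy chains, HLA-C had 809.9 CPM in both DMSO libraries and 861 and 964 CPM in erianin replicates 1 and 2. The groups did not overlap, and the gap between the erianin libraries was wider than that from DMSO to erianin replicate 1. The log2 fold change was 0.17 ± 0.10 (SE), and the 95% interval ran from -0.05 to 0.40. As a ratio that is 1.13-fold, with an interval from 0.965-fold to 1.32-fold.

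HLA-E had 335 and 363 CPM in the DMSO libraries and 375 and 390.4 CPM in those with erianin. The groups did not overlap, but the DMSO libraries were farther apart than DMSO replicate 2 was from erianin replicate 1. Its log2 fold change was 0.13 ± 0.09 (SE), with an interval of -0.08 to 0.35. HLA-B had 58.3 and 51.8 CPM in the DMSO libraries and 58.4 and 62.4 CPM in those with erianin. DMSO replicate 1 and erianin replicate 1 had almost the same level, so the groups were only just separate, and the log2 fold change was 0.13 ± 0.12 (SE). On the log2(FPKM + 1) scale the difference in HLA-B was -0.49 (limma, adjusted p = 0.728), the opposite direction, with the high DMSO replicate 1 described above.

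HLA-F had 7.58 and 7.69 CPM in the DMSO libraries and 8.35 and 8.01 CPM in those with erianin, from 445 to 532 counts a library. With the fewest counts of the heavy chains, it had the widest interval of the set, from -0.31 to 0.51 around a log2 fold change of 0.10. Since reads can be divided between heavy chain genes, their counts were also added into 1 feature. The sum was 1211 and 1232 CPM in the DMSO libraries and 1303 and 1425 CPM in those with erianin. The erianin libraries were the higher ones, with a log2 fold change of 0.16 ± 0.09 (SE), an interval of -0.06 to 0.38 and an adjusted p of 0.590 (edgeR, with the sum in place of the 4 genes).

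B2M, the shared light chain, had 665 and 596 CPM in the DMSO libraries and 661 and 701 CPM in those with erianin. The groups overlapped, with DMSO replicate 1 above erianin replicate 1. Its log2 fold change was 0.11 ± 0.10 (SE), with an interval of -0.12 to 0.34.

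TAP1, the peptide pump subunit, had the highest fold change of the set. It was at 78.1 and 77.9 CPM in the DMSO libraries and at 90.3 and 102 CPM in those with erianin. Both erianin libraries were above both DMSO libraries, and the DMSO libraries were nearly equal. The log2 fold change was 0.30 ± 0.11 (SE), with a 95% interval of 0.06 to 0.54 that leaves out the adjustment for many genes, and an adjusted p of 0.575 (edgeR). As a ratio it was 1.23-fold, with an interval from 1.04-fold to 1.46-fold.

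TAP2 had 64.3 and 64.7 CPM in the DMSO libraries and 72.8 and 68.4 CPM in those with erianin. Here erianin replicate 1 was the highest, in contrast to TAP1, where erianin replicate 2 was. The log2 fold change was 0.13 ± 0.10 (SE). TAPBP, the gene of tapasin, had 264 and 263 CPM in the DMSO libraries and 289.8 and 294 CPM in those with erianin. The spread within its groups was small, and the log2 fold change was 0.15 ± 0.09 (SE), with an interval of -0.06 to 0.35.

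NLRC5, the coactivator, had 16.5 and 17.6 CPM in the DMSO libraries and 17.0 and 18.3 CPM in those with erianin. The groups overlapped, and the log2 fold change was 0.05 ± 0.15 (SE), with an interval of -0.29 to 0.39. On library totals, with no TMM factor, it was -0.048, and without erianin replicate 2 it was -0.0020.

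In 7 of the 9 genes, all but B2M and NLRC5, both erianin libraries were above both DMSO libraries, and this held for 21.7% of all genes. None had both erianin libraries below both DMSO libraries, beside 24.4% of all genes. On library totals alone the median of the 9 was 0.03 and that of all genes -0.11, a shift of all genes of about the same size, so the distance between them was 0.14 on that scaling and 0.15 with TMM factors.

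**Figure D3:**
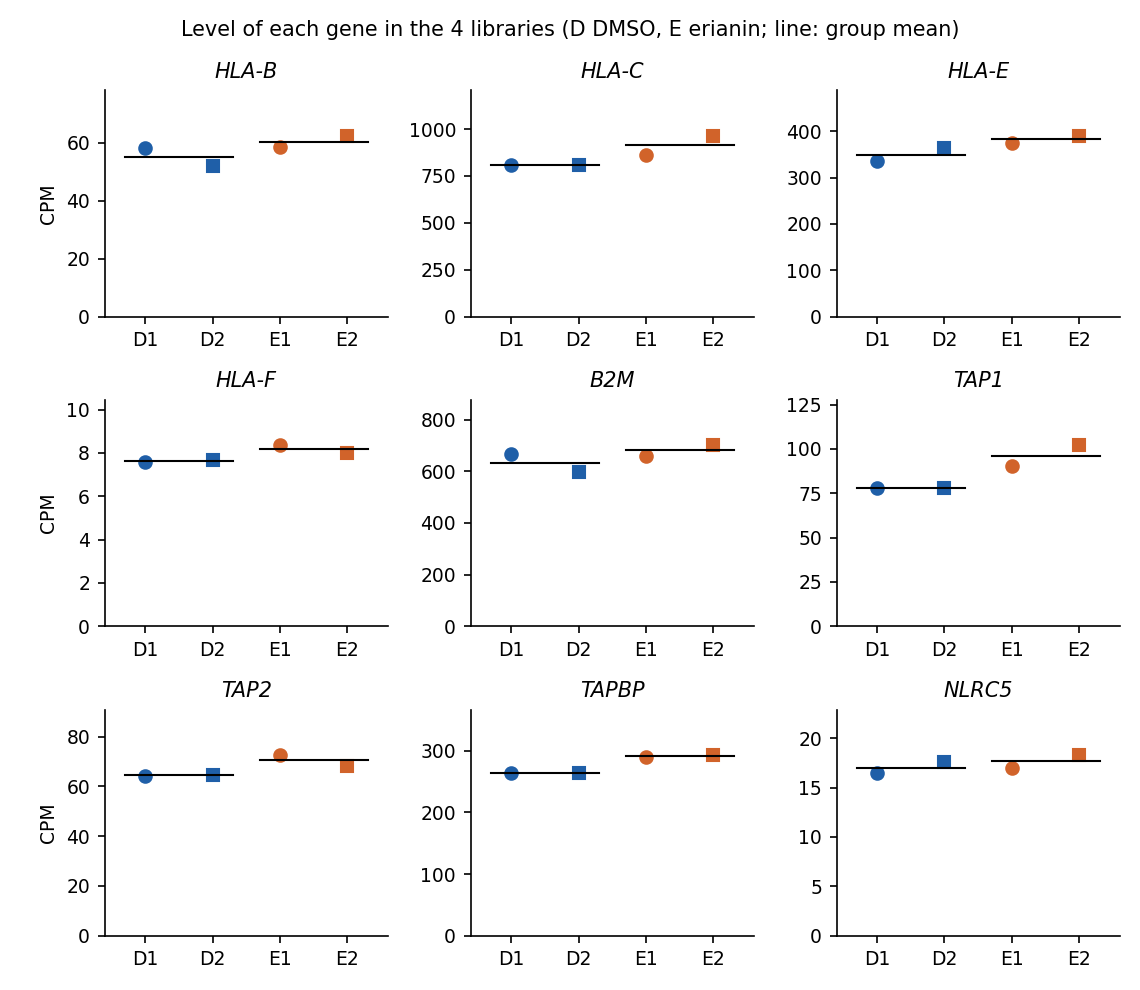
CPM of each gene in DMSO replicates 1 and 2 (D1, D2) and erianin replicates 1 and 2 (E1, E2), with the group mean as a line and each axis starting at 0. In 7 genes both erianin points lie above both DMSO points, with TAP1 the farthest apart, and in B2M and NLRC5 the groups overlap.

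Fold changes over the whole table follow the GC content of the genes, so each gene was set beside genes within 2 percentage points of its GC content whose log2 CPM averaged 3 or more. HLA-C, at 62.7% GC, had a log2 fold change of 0.17, and 882 genes near its GC content had a median of 0.17. HLA-B, at 59.0%, had 0.13 beside a median of 0.14, and TAPBP, at 57.6%, had 0.15 beside 0.14. NLRC5, at 58.0%, had 0.05 beside 0.14, and HLA-F, at 57.7%, had 0.10 beside 0.14. These 5 genes lay near or below genes of like composition.

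TAP1, at 57.5% GC, had 0.30 beside a median of 0.13, and HLA-E, at 54.8%, had 0.13 beside 0.10. TAP2, at 49.1%, had 0.13 beside -0.05. B2M was the odd member, at 40.6% GC, with 0.11 beside a median of -0.27 over 993 genes. With a spline on GC content and length as an offset, B2M was at 0.32 and TAP2 at 0.25, with unadjusted p of 0.0141 and 0.0134 and an adjusted p of 0.738 each (edgeR). The offset put TAP1 at 0.17, HLA-B at -0.06, HLA-C at -0.04 and HLA-F at -0.08. The median of the 9 was then 0.03 and 6 of 9 lay above 0.

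**Figure D4:**
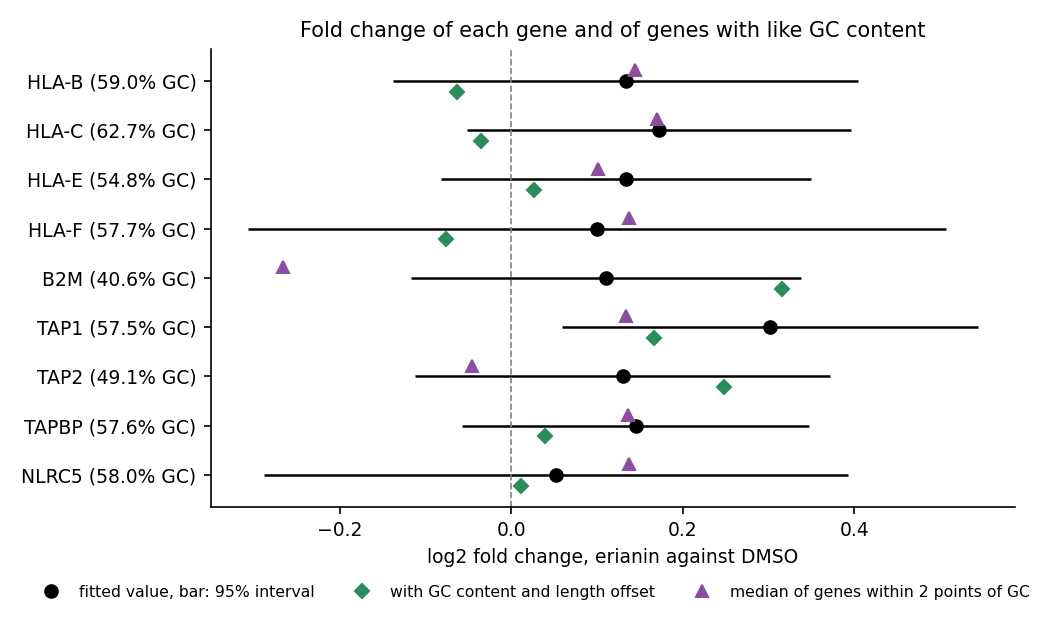
Log2 fold change of each gene with its 95% interval (black), the value with the GC content and length offset (green) and the median of genes within 2 points of its GC content (purple). For HLA-B, HLA-C and TAPBP the purple and black points nearly coincide, while B2M and TAP2 lie to the right of genes of like GC content.

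All members but B2M and NLRC5 lie in the major histocompatibility complex, on chromosome 6 between 29722775 and 33314387. The other 104 protein-coding genes tested there had a median log2 fold change of 0.11, with 76 above 0, beside 0.13 for the 7 members and -0.02 over 13342 protein-coding genes. Their median GC content was 56.1%, against 49.1% over all protein-coding genes. Both erianin libraries were above both DMSO libraries in 37 of the 104 (35.6%, against 22.9% of all protein-coding genes) and below them in 5. None of the 104 passed the test.

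Peptide supply was read from 9 proteasome genes. The immunoproteasome subunits PSMB8, PSMB9 and PSMB10 replace PSMB5, PSMB6 and PSMB7 of the standard particle and favour peptides that fit class I. PSMB9, next to TAP1 in the genome, had 57.5 and 61.4 CPM in the DMSO libraries and 60.8 and 76.1 CPM in those with erianin. Its groups overlapped, and erianin replicate 2 alone stood apart, with a log2 fold change of 0.20 ± 0.13 (SE). PSMB8 had 0.15 ± 0.11 (SE) and PSMB10 0.15 ± 0.11 (SE). Of the 9 genes, 8 were above 0, against 48.7% of all genes, with a median of 0.10, which was 0.021 with the GC content and length offset. None passed edgeR's test in either direction (0 also at an unadjusted p under 0.05). Without erianin replicate 2, PSMB8 and PSMB9 were both at 0.035 and PSMB10 at 0.062. Without erianin replicate 1, PSMB9 was at 0.35 and PSMB8 at 0.25.

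Each immunoproteasome subunit stayed below its standard counterpart on the FPKM scale. PSMB8 was 0.338 and 0.337 times PSMB5 in DMSO and 0.348 and 0.326 times in erianin. PSMB9 was 0.127 and 0.125 times PSMB6 in DMSO and 0.129 and 0.142 times in erianin. PSMB10 was 0.618 and 0.607 times PSMB7 in DMSO and 0.688 and 0.747 times in erianin. The PSMB9 ratios were only just separate between the groups, at 0.127 in DMSO replicate 1 and 0.129 in erianin replicate 1. Those of PSMB10 did not overlap either. How often such ratios separate over all genes was not computed. With the GC content and length offset the log2 fold change was -0.075 for PSMB10 and -0.128 for PSMB7.

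Genes of peptide trimming, heavy chain folding and class I turnover, 17 in number, had a median log2 fold change of -0.09, with 7 above 0 and 10 below. None passed the test in either direction, and 4 had an unadjusted p under 0.05, all below 0, against 5.89% of all genes. ERAP1, which trims peptides in the endoplasmic reticulum, had 36.1 and 34.2 CPM in the DMSO libraries and 28.9 and 22.5 CPM in those with erianin, a log2 fold change of -0.45 ± 0.16 (SE). LNPEP, an aminopeptidase of the same family, had -0.58 ± 0.18 (SE). CANX, the lectin chaperone that holds new heavy chains, had 386 and 362 CPM in the DMSO libraries and 318 and 237 CPM in those with erianin, a log2 fold change of -0.43 ± 0.14 (SE). Of the 17 genes, 8 had both erianin libraries below both DMSO libraries (24.4% of all genes) and 2 had both above (21.7%). The 3 genes named here had the smallest p of the list. In all 3 the erianin libraries were below the DMSO libraries, and erianin replicate 2 was the lowest. Their GC contents were 39.7%, 38.8% and 41.6%, and with the GC content and length offset the values were -0.17, -0.24 and -0.19. Without erianin replicate 1 ERAP1, LNPEP and CANX were at -0.65, -0.79 and -0.67, and without erianin replicate 2 at -0.28, -0.41 and -0.23.

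The factors that bind class I promoters, 16 in number, had a median of 0.00, with 8 on each side of 0 and 0 past the test in either direction. RFXANK, a subunit of the RFX complex, had 85.0 and 92.8 CPM in the DMSO libraries and 100.4 and 117 CPM in those with erianin, a log2 fold change of 0.29 ± 0.11 (SE). NFYA, a subunit of NF-Y, had 12.2 and 9.99 CPM in the DMSO libraries and 9.08 and 6.75 CPM in those with erianin, at -0.49 ± 0.21 (SE). Both had an unadjusted p under 0.05 and an adjusted p of 0.575 (edgeR). Their GC contents were 60.8% and 45.0%, and the offset brought them to 0.07 and -0.31. Without erianin replicate 1 RFXANK and NFYA were at 0.38 and -0.73, and without erianin replicate 2 at 0.18 and -0.29.

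Receptor chains, signal carriers and inhibitors of the interferon gamma pathway, 13 genes tested, had a median of -0.33, with 4 above 0 and 9 below. The list had 0 past the test in either direction and 3 at an unadjusted p under 0.05, all below 0, IFNGR1 and PTPN11 among them, against 5.89% of all genes. IFNGR1, the ligand-binding receptor chain, had 6.56 and 6.43 CPM in the DMSO libraries and 5.18 and 3.01 CPM in those with erianin, at -0.66 ± 0.28 (SE). PTPN11, a phosphatase, had -0.53 ± 0.21 (SE). Without erianin replicate 2 these were -0.32 and -0.24, and without erianin replicate 1 they were -1.12 and -0.92. IRF9, named after its value was seen as the gene of this list farthest from 0, had 7.21 and 9.04 CPM in the DMSO libraries and 8.64 and 18.4 CPM in those with erianin. Its log2 fold change was 0.73 ± 0.33 (SE), with erianin replicate 2 alone apart. The silencer list held 13 genes linked to lower class I, not all of which act on transcription. Its median was -0.20, with 2 above 0 and 11 below (48.7% of all genes were above 0). None passed the test in either direction, and 2 had an unadjusted p under 0.05, both below 0, against 5.89% of all genes. EZH2, the methyltransferase of Polycomb complex PRC2, had 8.73 and 7.44 CPM in the DMSO libraries and 5.83 and 5.00 CPM in those with erianin, at -0.58 ± 0.20 (SE). JARID2 had -0.76 ± 0.30 (SE) and SUZ12 -0.42 ± 0.19 (SE). Without DMSO replicate 1 JARID2 was at -0.36. EZH2 was at -0.70 without erianin replicate 1. The median GC contents of these lists were 46.2% and 44.9%, and with the offset their medians were -0.08 and -0.06.

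**Figure D5:**
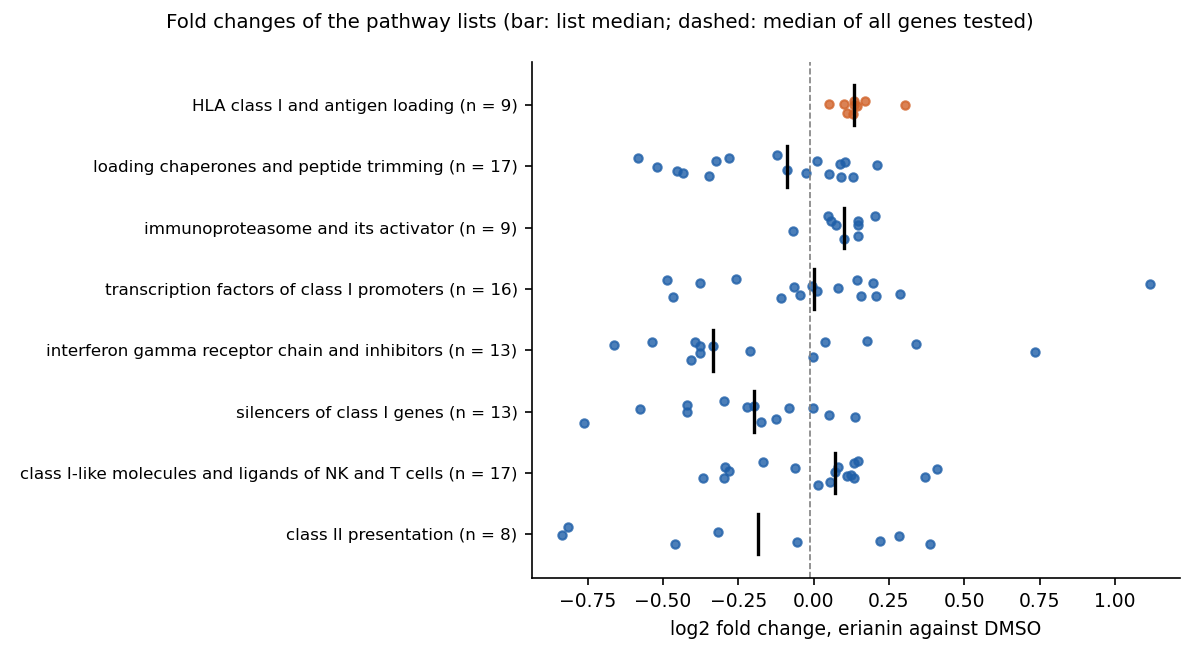
Log2 fold change of each gene tested in the 8 lists, 1 point a gene, with the list median as a bar and the median of all genes tested (-0.01) as a dashed line. The class I and loading genes lie between 0.05 and 0.30, while the interferon list runs from -0.66 to 0.73 and the silencer list from -0.76 to 0.14.

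The profiles nearest to HLA-B and B2M were sought among 7985 other genes whose log2 CPM averaged 3 or more, by Euclidean distance of centred log2 CPM over the 4 libraries. For HLA-B they were LINC00339, VPS16 and B2M, at distances of 0.023, 0.024 and 0.026, against a median of 0.27. For B2M they were TATDN1, ADGRB2 and CISD1, at 0.011, 0.015 and 0.019. In each of these genes DMSO replicate 2 was the lowest library and erianin replicate 2 the highest. With 4 libraries many genes can be this close, and the distance is a description.

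The calls depended on single libraries. Without erianin replicate 1, TAP1 and HLA-C passed (edgeR, adjusted p = 0.0127 and 0.0146, log2 fold changes of 0.38 and 0.24), as did the sum of the 4 heavy chain genes (0.0215). In that fit 17.5% of all genes passed, 3166 of 18116 (7.3% higher and 10.2% lower). With the lone erianin library assumed to vary like the DMSO libraries, these values describe erianin replicate 2. HLA-F and TAP2 were then at 0.059 and 0.075. Without erianin replicate 2, TAP1 was at 0.21, HLA-C at 0.089, B2M at 0.069 and HLA-B at 0.087, and none of the 9 passed. Without DMSO replicate 2, HLA-B was at 0.050 and B2M at 0.033.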

How the data were processed

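RNA was measured in 4 libraries. Groups and replicate numbers came from the sample titles. The deposited estimated counts are whole numbers with no scaling, and the deposited FPKM values have the same rows, per the file headers. Tools listed in the submitters' processing notes are featureCounts 2.0.1, StringTie 2.2.1, STAR and fastp, and the build is GRCh38. For the role of each tool and the annotation: not given in the sources used here. Plain counts per gene had been assumed in the plan. The table has 107429 rows, which were summed per gene identifier. Symbols were looked up by gene identifier, and positions, length and GC content from GENCODE 29 (24725 identifiers found).

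The test was edgeR 4.0.16 (R 4.3.3), quasi-likelihood, with TMM factors, filterByExpr at a minimum count of 10, the group as the only term and a threshold of 0.05 on the adjusted p. Standard errors are the log2 fold change over the square root of F. It was tested on simulated data. limma 3.58.1, DESeq2 1.42.0 and BLAST+ 2.17.0 served the alternatives and shared sequence. Members and lists were chosen with earlier results of these data known. Of each pathway list, the text names up to 3 genes with the smallest p and a mean log2 CPM of at least 1, besides genes named as counterparts. A gene of these lists is not reported here.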

Additional observations from a re-analysis of the deposited data

How the results depend on the processing

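The limits are 2 libraries a group, a division of counts over rows that differs between libraries, and a trend with GC content. No member passed under any alternative that kept all 4 libraries, the DESeq2 Wald test and limma-voom among them. The count of 7 genes called became 2 with library totals alone or with limma on log2(FPKM + 1) or log2(FPKM + 0.1), 21 with the DESeq2 Wald test, 0 with limma-voom and 0 with the largest row of each gene. Leaving out 1 library gave from 24 (without erianin replicate 2) to 3166 (without erianin replicate 1) genes, with 62 and 73 without DMSO replicates 1 and 2, and from 0 to 2 members called.

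The median log2 fold change of the members, 0.13, became 0.033 with library totals alone, 0.026 with the GC content and length offset, 0.34 with the largest row of each gene and 0.024 with limma on either FPKM scale, and ran from 0.11 to 0.15 without 1 library. The sum of the 4 heavy chain genes ran from 0.095 to 0.21 without 1 library. It was not fitted with the GC content and length offset, since a sum of genes has no GC content of its own.

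With the replicate number as a block, 334 genes passed (66 higher and 268 lower), CANX (adjusted p = 0.0113) and PTPN11 (0.0322) among those named, and 0 members. Same-numbered libraries share only a number in the labels; the correlation of their deviations from the group means was 0.22 across 7986 genes.

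Directions turned as follows. With library totals alone NLRC5 was at -0.048. With the GC content and length offset HLA-B was at -0.064, HLA-C at -0.035, HLA-F at -0.076, PSMB10 at -0.075, NECTIN2 at -0.021 and CD47 at 0.0011. With the largest row of each gene TAPBP was at -0.88 and CD74 at -0.052. On the log2(FPKM + 1) scale HLA-B was at -0.49, HLA-F at -0.011, B2M at -0.00021 and NLRC5 at -0.12. On the log2(FPKM + 0.1) scale they were at -0.51, -0.014, -0.00020 and -0.16. Without 1 library NLRC5 ran from -0.0020 to 0.098, HLA-DMA from -0.088 to 0.67 and IFI30 from -0.15 to 0.050. For the largest row the alternative itself picks 1 row of each gene, and the division over rows differed between libraries. For the other turns the cause was not tested.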

Other observations

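Surface ligands beside the classical class I genes were also measured. Of 19 class I-like molecules and ligands of natural killer and T cells, 17 were tested, with a median log2 fold change of 0.07, 11 above 0 and 6 below, and with the GC content and length offset the median was -0.0096. None passed edgeR's test, and 0 had an unadjusted p under 0.05. NECTIN2, a ligand of the receptors DNAM-1 and TIGIT, had 285 and 292 CPM in the DMSO libraries and 307 and 332 CPM in those with erianin. Its log2 fold change was 0.15 ± 0.09 (SE), and 0.19 without erianin replicate 1. RAET1G, an NKG2D ligand, had 0.41 ± 0.24 (SE), and CD47, a signal against phagocytosis, had -0.30 ± 0.20 (SE).

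Genes of class II presentation were low in SW1990. Apart from IFI30, none of the 8 genes tested exceeded 5.43 CPM in any library. CD74, the invariant chain, had 3.82 and 4.57 CPM in the DMSO libraries and 4.35 and 5.43 CPM in those with erianin. HLA-DMA had 0.28 ± 0.37 (SE). IFI30, a lysosomal thiol reductase, was the highest of the list, with 54.1 and 47.1 CPM in the DMSO libraries and 49.4 and 48.1 CPM in those with erianin. Of 12 genes 8 were tested, with 3 above 0 and 5 below, and none passed edgeR's test (0 also at an unadjusted p under 0.05).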
